A study of Danio rerio with 75 samples.

Results

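The genes described here encode the receptors through which the 2 main transmitters of the vertebrate brain, glutamate and GABA, act. They were the rows of the count table whose symbol, ignoring case, begins with gria, grin and a digit, grik, grid and a digit, grm and a digit, gabra, gabrb, gabrg, gabrd or gabrr, which gave 63 of 32677 rows. Of these, 61 are receptor subunit genes, and grid2ipa and grid2ipb, whose symbols begin in the same way, encode proteins that bind the delta glutamate receptor. There were 8 AMPA, 13 NMDA, 6 kainate, 3 delta and 9 metabotropic glutamate receptor genes, and 10 alpha, 4 beta, 3 gamma, 1 delta and 4 rho GABA receptor genes. Genes are called by the symbols in the deposited table, where a label such as GRIN2B (1 of 2) marks a gene with several copies in the fish. For 53 of them a current symbol was found, and GABRA6 of the table is GABRA4 there. The table describes GRM2 (2 of 2) as metabotropic receptor 7, against its symbol, so that its subtype is uncertain.

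Glutamate excites neurons through ion channels of 4 subunits. AMPA receptors carry most of the fast excitatory current, kainate receptors tune it, and NMDA receptors, which need an obligatory GluN1 subunit (grin1) together with GluN2 or GluN3 partners, admit calcium and are central to synaptic plasticity. Metabotropic glutamate receptors act more slowly through G proteins. GABA inhibits neurons through pentameric chloride channels, most often built of alpha, beta and gamma subunits, while channels with a delta subunit lie outside synapses and the rho subunits are best known from the retina. Because teleost fish kept copies from an ancient genome duplication, many mammalian subunits have a pair of counterparts in zebrafish.

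Brain, skin and liver of male zebrafish (Danio rerio) were sequenced at 6, 12, 24, 36 and 42 months, and brain and skin had 5 libraries at each age, or 25 per tissue. The label gave the strain as AB JxTu with no listed transgene at 6 and 24 months, AB JxTu Tg(flk:mCherry) at 12 months, AB JxTu Tg(pu.1:GFP) at 36 months and AB JxTu Tg(wt1a:GFP) at 42 months, so that line and age cannot be told apart outside the comparison of 24 with 6 months. Brain libraries of 6 months were pools of 2 fish and all others came from single fish, so that every comparison with 6 months in brain also sets single fish against pools, whose values may vary less. The total count was 29006611 to 44324353 in brain and 32925263 to 48935972 in skin. For the fish of brain 12 months replicate 5 and skin 6 months replicate 3, a further library that was put in no group carries another line in its label.

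Some libraries stood apart. The summed level of 21 photoreceptor and retina markers was 25.3 to 228 counts per 1000000 counts (CPM) in the pools of 6 months and 19.3 to 80.8 CPM in the other brain libraries, and that of 9 pituitary hormone genes was 7.21 to 721 CPM in the pools and 5.93 to 11.3 CPM in the others. In skin, 42 months replicate 5 held the highest value of 34 of the 63 genes, with a summed RPKM of 41.3 over them, against 13.3 to 25.5 in the other skin libraries. The brain carried its defining markers, with 23 pan-neuronal markers summing to 14801 to 19421 CPM, against 90.3 to 407 CPM in skin.

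All 63 genes had a count above 0 in every brain library and passed the filter on low counts there. Levels between genes were compared in RPKM, which divides counts by gene length. The highest mean over the 25 brain libraries was that of grin1a, a gene of the obligatory NMDA receptor subunit, with 247 ± 41.4 RPKM (SD, n = 25). It was followed by gria2b with 140 ± 21.5 RPKM, which encodes the AMPA receptor subunit that limits calcium entry, and by grin1b, gabrb2, gabrd and gria2a, which lay at 102 to 104 RPKM and did not differ beyond their spread. These 6 genes were at 100 RPKM or more, 28 lay at 10 to under 100 RPKM, 28 at 1 to under 10 RPKM and 1 below, which was gabra6a with 0.129 ± 0.0609 RPKM (SD, n = 25).

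Within most classes a single gene held a large share of the summed RPKM. The 2 grin1 genes made up most of the NMDA receptor sum, with 55.9% ± 3.88 for grin1a and 23.9% ± 2.62 for grin1b (SD, n = 25), and among the partner subunits grin2bb was highest with 21.2 RPKM. Of the AMPA receptor sum, gria2b held 34.4% ± 2.75 and gria2a 25.2% ± 1.55 (SD, n = 25). Of the GABA-A receptor beta sum gabrb2 held 75.2% ± 6.23 (SD, n = 25). The leading kainate receptor genes, grik5 with 9.28 RPKM and GRIK5 (1 of 2) with 8.96 RPKM, which encode subunits that work only with a partner, did not differ beyond their spread. Of the other classes grm1a led with 34.7 RPKM among metabotropic receptors of group I, GRM2 (2 of 2) with 26.5 RPKM among the other metabotropic receptors, and gabrr2a with 4.42 RPKM among the rho genes.

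**Figure D1:**
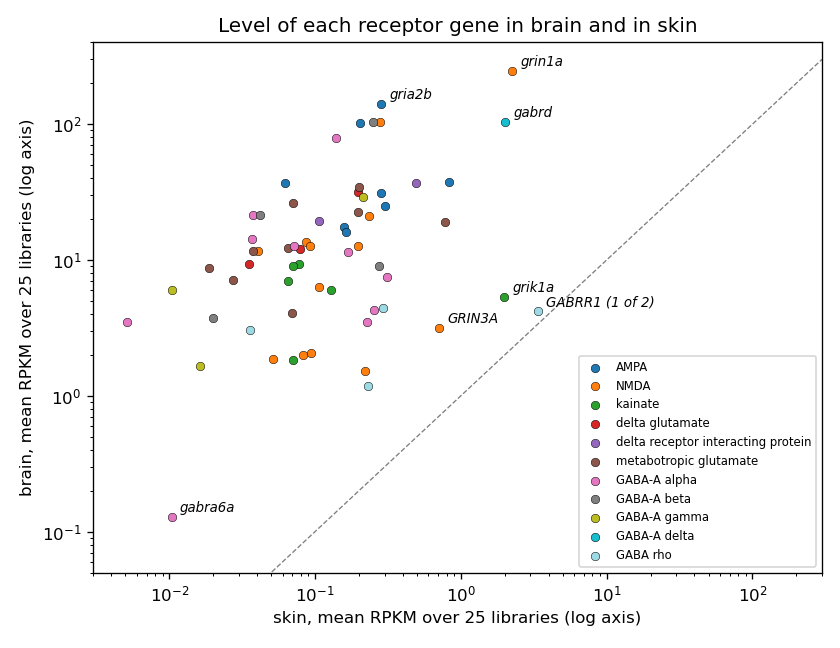
Mean RPKM of each of the 63 genes over 25 brain libraries (y, log axis) against its mean over 25 skin libraries (x, log axis), coloured by class; the dashed line marks equal levels. All genes lie above the line, GABRR1 (1 of 2) is the nearest to it with 4.18 RPKM in brain and 3.37 RPKM in skin, and grin1a is the highest in brain with 247 RPKM.

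The course over age asks at which ages the receptor genes differed from those of the 6-month fish. It was tested with edgeR's quasi-likelihood test and Benjamini-Hochberg adjustment over all 23028 genes that passed the filter, and a gene is called where its adjusted p is under 0.05. More of the receptor genes were called at 36 months than at any other age. At 36 months 33 of 63 were called (52.4%, where 28.7% of all genes tested were). Of these 28 fell, where 3478 of all 23028 genes did, and 5 rose, where 3127 of all genes did. The median log2 fold change was -0.33 over the 63 genes and -0.02 over all genes. The groups of 36 and 6 months did not overlap for 22 genes that were lower at 36 months (34.9%, against 10.2% of all genes) and for 2 that were higher (3.17%, against 10.4%). The number called was 22 to 33 when each library was left out in turn, with the lowest count without brain 6 months replicate 3.

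At 42 months 2 of 63 fell (3.17%, where 4.20% of all genes did) and 1 rose (1.59%, where 4.47% did), and the median log2 fold change was -0.06. A total of 1 gene was called without brain 6 months replicate 3 or without brain 42 months replicate 5. At 12 months 6 fell (9.52%, where 9.74% of all genes did) and 2 rose (3.17%, where 8.57% did), and at 24 months 3 fell and 3 rose (4.76% each, where 7.06% and 6.83% of all genes did). At 12 months 5 genes were called without brain 6 months replicate 3, 12 months replicate 1 or 12 months replicate 3, and at 24 months 3 without brain 6 months replicate 5, 24 months replicate 2 or 24 months replicate 3, 12 without 24 months replicate 4 and 11 with DESeq2. The shares that fell at 12, 24 and 42 months were thus near or below those of all genes. The median log2 fold change was -0.18 at 12 months and -0.07 at 24 months, against -0.00 over all genes at both. Of the 30 ionotropic glutamate receptor genes 26, 16, 27 and 21 lay below 0 at 12, 24, 36 and 42 months, called or not. The median over all genes was -0.00, -0.00, -0.02 and -0.01 at these ages. These counts by sign all rest on the same 6-month libraries, include genes that were not called and are not read as a result. For 32 of the 63 genes the lowest of the 5 age means was that of 36 months, which held for 24.6% of all genes.

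Because these comparisons share the 6-month libraries, the 36-month libraries were also set against their neighbours in age, comparisons that were added after the values were seen. Against 24 months 20 of 63 were lower at 36 months (31.7%, where 10.5% of all genes were) and 3 higher (4.76%, where 10.5% were). Between 42 and 36 months 22 were higher at 42 months (34.9%, where 12.0% of all genes were) and 5 lower (7.94%, where 10.8% were). This last comparison called 17 genes in all without brain 42 months replicate 1, in place of 27. Over all ages, an F test of any difference called 41 of 63 (65.1%, where 50.1% of all genes were called). In bulk tissue, fewer cells of a type and less RNA per cell cannot be told apart.

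**Figure D2:**
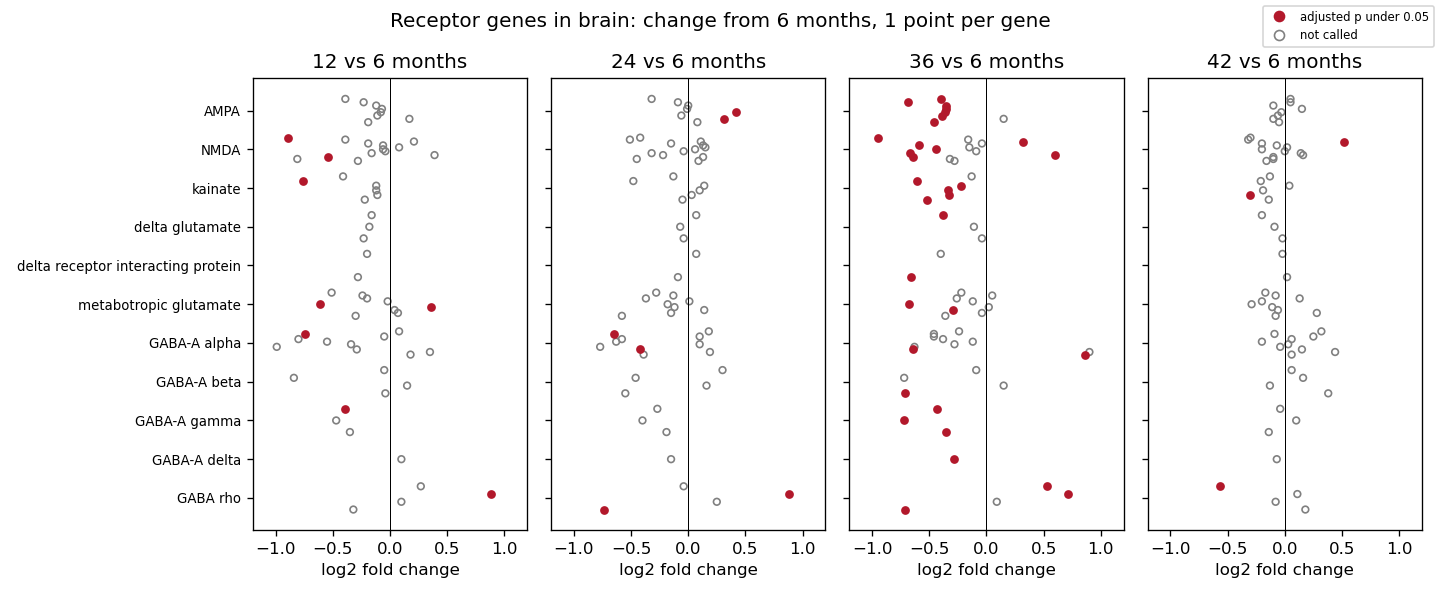
Log2 fold change from 6 months in brain (x) of each receptor gene, in rows by class, at 12, 24, 36 and 42 months; filled points have an adjusted p under 0.05 in edgeR's quasi-likelihood test. At 36 months 28 genes are called lower and 5 higher, and at 42 months 2 are called lower and 1 higher.

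Of the AMPA receptor genes 7 of 8 fell at 36 months (87.5%, where 3478 of all 23028 genes did). Their log2 fold changes ran from -0.35 for gria2b to -0.69 for gria1b, and gria4a, with 0.15, was not called. The gria2b gene had 502.1, 585.5, 657.1, 546.1 and 558.4 CPM at 36 months, against 788.4, 657.8, 769.0, 696.7 and 719.2 CPM at 6 months. Its groups were separated by less than 1 CPM, and the fold change was 0.785 (log2 -0.35, SE 0.11, adjusted p = 0.018, edgeR), a call lost in 3 of 25 fits that left out a library, the weakest without brain 36 months replicate 1 (log2 -0.28, adjusted p = 0.0744). At 42 months gria2b had 954.7, 759.5, 715.8, 809.1 and 799.7 CPM, which overlapped with 6 months (log2 0.15).

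The gria1b gene had 48.5, 44.8, 52.5, 41.6 and 36.5 CPM at 36 months, against 72.7, 65.2, 81.3, 66.8 and 75.3 CPM at 6 months. The groups did not overlap, and the level at 36 months was 0.620 of that at 6 months (log2 -0.69, SE 0.12, adjusted p = 1.5e-04, edgeR). Both gria1 genes encode GluA1, the subunit known from activity-dependent delivery to synapses, and the call of the other, gria1a (log2 -0.40, adjusted p = 0.0485, edgeR), was lost in 22 of 25 fits that left out a library, with the weakest value without brain 36 months replicate 5 (log2 -0.28, adjusted p = 0.157). The gria3a gene was highest at 24 months, with 170 ± 24.8 CPM, against 127 ± 6.72 CPM at 6 months (SD, n = 5 each; log2 0.42, SE 0.09, adjusted p = 0.00342, edgeR), and lowest at 36 months, with 90.3 to 107.9 CPM. The gria4a gene also rose at 24 months (log2 0.31, SE 0.09, adjusted p = 0.0256), with 101.8 to 127.6 CPM against 82.8 to 95.7 CPM, a call lost in 2 of 25 fits, the weakest without brain 6 months replicate 5 (log2 0.29, adjusted p = 0.0599). The ratio of the summed gria2 genes to the other AMPA receptor genes, in RPKM, was 1.47 ± 0.0445 at 36 months and 1.48 ± 0.0464 at 6 months (SD, n = 5 each).

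NMDA receptor genes differed among themselves. At 36 months 5 of 13 (grin1a, grin2aa, GRIN2B (1 of 2), grin2bb and grin2da) fell, or 38.5%, where 3478 of all 23028 genes did. The 2 that rose were GRIN3A and grin2ca (15.4%, where 3127 of all genes did), a share that does not stand out. The grin1a gene had 846, 886, 1074, 884 and 996 CPM at 36 months, against 1425, 1396, 1416, 1422 and 1417 CPM at 6 months. Every library of 36 months lay below every library of the other 4 ages, of which the lowest had 1172 CPM. The level was 0.662 of that at 6 months (log2 -0.59, SE 0.08, adjusted p = 2.4e-05, edgeR), while its copy grin1b, with 300.1 to 390.9 CPM against 367.4 to 418.0 CPM, was not called (log2 -0.15, SE 0.09, adjusted p = 0.207). The ratio of grin1a to grin1b, in RPKM, was 1.92 ± 0.340 at 36 months and 2.59 ± 0.122 at 6 months (SD, n = 5 each). At 42 months grin1a had 1540, 1383, 1200, 1425 and 1172 CPM, with a log2 fold change from 6 months of -0.07.

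GRIN2B (1 of 2), a gene of the GluN2B subunit that prevails in the young mammalian forebrain, had the largest fall of the called glutamate receptor genes at 36 months. It had 35.1, 48.2, 38.6, 26.2 and 23.3 CPM at 36 months, against 68.5, 55.1, 83.4, 60.3 and 63.8 CPM at 6 months. The groups did not overlap (log2 -0.95, SE 0.19, adjusted p = 9.0e-04, edgeR). It was also low at 12 months, with 30.6 to 39.4 CPM (log2 -0.89, adjusted p = 0.00405), but not called at 24 months (35.8 to 66.5 CPM) or at 42 months (39.1 to 66.6 CPM). The grin2bb gene had 133.6, 148.9, 184.7, 124.5 and 112.7 CPM at 36 months, against 232.8, 190.5, 256.5, 214.9 and 226.4 CPM at 6 months (log2 -0.67, SE 0.15, adjusted p = 0.00171, edgeR), and 206.9 to 311.2 CPM at 42 months. Of the GluN2A genes, grin2aa fell at 36 months (log2 -0.44, SE 0.09, adjusted p = 0.00105) and grin2ab was not called (log2 -0.09). The summed RPKM of both GluN2B genes over that of both GluN2A genes was 1.57 ± 0.199, 1.21 ± 0.171, 1.21 ± 0.142, 1.08 ± 0.150 and 1.64 ± 0.237 at 6, 12, 24, 36 and 42 months (SD, n = 5 each), so that the libraries of 36 months (0.895 to 1.29) lay below those of 6 months (1.35 to 1.86) and of 42 months (1.39 to 1.94).

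GRIN3A, which encodes a subunit that lowers the calcium entry of NMDA receptors, was the single receptor gene that rose in old against young brain. It had 13.1, 10.4, 12.7, 10.4 and 9.25 CPM at 36 months and 16.5, 11.3, 12.3, 11.3 and 12.7 CPM at 42 months, against 8.62, 8.63, 10.2, 9.52 and 7.63 CPM at 6 months. The 42-month libraries lay above those of 6 months (log2 0.52, SE 0.12, adjusted p = 0.00867, edgeR), while those of 36 months overlapped with them (log2 0.32, adjusted p = 0.0432), a call lost in 5 of 25 fits without a library, the weakest without brain 6 months replicate 5 (log2 0.30, adjusted p = 0.0844). The gene grin2ca, of the GluN2C subunit known from mammalian cerebellar granule cells, had 87.6, 78.5, 54.9, 69.3 and 63.9 CPM at 36 months, against 39.7, 55.5, 36.6, 57.7 and 43.6 CPM at 6 months. It was 1.52-fold higher (SE 0.21 on the log2 scale, adjusted p = 0.0314, edgeR), and lost its call in 4 of 25 fits, the weakest without brain 6 months replicate 1 (log2 0.55, adjusted p = 0.0745). The other GluN2C gene, GRIN2C (1 of 2), was not called in brain at that age (log2 -0.16).

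**Figure D3:**
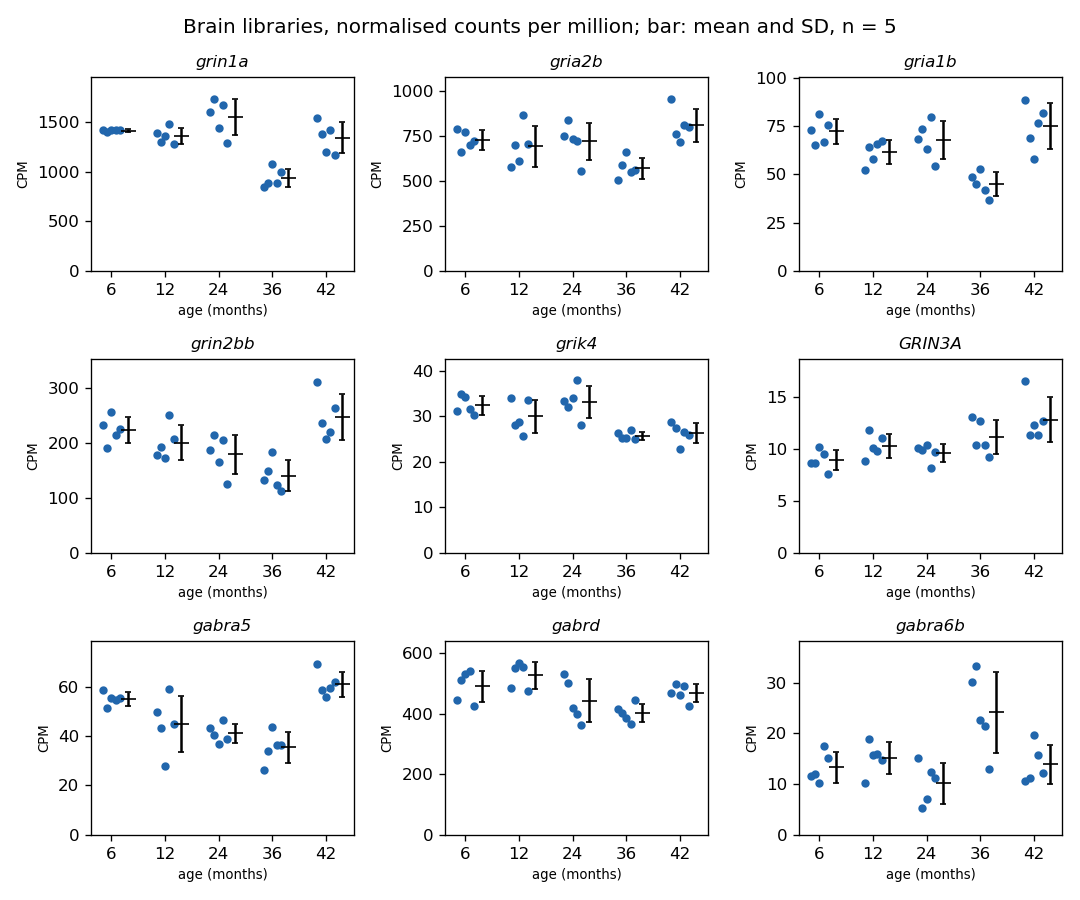
CPM in each brain library (y, from 0) of 9 receptor genes at the 5 ages (x), with mean and SD (n = 5) beside the points. The grin1a gene lies between 846 and 1074 CPM at 36 months, below all libraries of the other ages, while gabra6b is highest at 36 months and GRIN3A at 42 months.

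Kainate receptor genes fell at 36 months in 5 of 6 cases (83.3%, where 3478 of all 23028 genes did), with GRIK1 (1 of 2) the exception (log2 -0.13). The grik5 gene had 21.3, 24.1, 22.6, 24.7 and 20.9 CPM at 36 months, against 31.4, 34.9, 35.4, 32.3 and 28.9 CPM at 6 months. The groups did not overlap (log2 -0.52, SE 0.08, adjusted p = 7.2e-05, edgeR). At 42 months grik5 had 24.6 to 33.2 CPM and was not called. GRIK5 (1 of 2) fell less (log2 -0.22, adjusted p = 0.0255), and its call was lost in 21 of 25 fits, the weakest without brain 6 months replicate 3 (log2 -0.16, adjusted p = 0.137).

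The gene grik4, of a further subunit that needs a partner, was called lower at both late ages. It had 26.3, 25.3, 25.2, 27.0 and 24.9 CPM at 36 months and 28.8, 27.5, 22.8, 26.5 and 25.9 CPM at 42 months, against 31.1, 34.8, 34.3, 31.6 and 30.2 CPM at 6 months. None of the 10 late libraries reached the lowest of 6 months. The log2 fold change was -0.33 (SE 0.08, adjusted p = 0.00463, edgeR) at 36 months and -0.30 (SE 0.08, adjusted p = 0.0263) at 42 months, where 4 of 25 fits lost the call, the weakest without brain 42 months replicate 3 (log2 -0.25, adjusted p = 0.0802). The direct comparison of 42 with 36 months gave 0.03. The calls of GRIK3 (log2 -0.61) and grik1a (log2 -0.34) at 36 months were lost in 3 of 25 fits each, the weakest without brain 36 months replicate 4 (log2 -0.50 and -0.28, adjusted p = 0.0701 and 0.0672). The share of GRIK3 in the kainate receptor sum was lower at 12 months too, with 18.3% ± 1.73, 12.9% ± 1.75 and 15.5% ± 4.3 at 6, 12 and 36 months (SD, n = 5 each).

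Of the delta receptor genes GRID1 (1 of 2), whose product links synapses rather than passing current, had 32.7, 33.7, 31.8, 32.1 and 32.1 CPM at 36 months, against 40.9, 43.4, 44.2, 42.3 and 40.0 CPM at 6 months. The spread within each age was narrow and the groups were separate (log2 -0.38, SE 0.06, adjusted p = 1.7e-04, edgeR). Its copy GRID1 (2 of 2) was not called (log2 -0.11). Of the proteins that bind the delta receptor, grid2ipb averaged 114 ± 9.41 CPM at 36 months, against 180 ± 9.59 CPM at 6 months (SD, n = 5 each), and the groups did not overlap (log2 -0.66, SE 0.12, adjusted p = 3.2e-04, edgeR). At 42 months it had 140.5 to 212.3 CPM.

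Of the metabotropic receptor genes 2 of 9 fell at 36 months (22.2%), a share that does not stand out from that of all genes, of which 3478 of 23028 fell. GRM6 (1 of 2), whose mammalian counterpart is the light-response receptor of retinal ON bipolar cells, had 10.8, 9.94, 10.7, 6.31 and 5.54 CPM at 36 months, against 14.7, 11.9, 14.9, 14.1 and 13.7 CPM at 6 months. The groups did not overlap (log2 -0.68, SE 0.17, adjusted p = 0.00502, edgeR). Its share of the summed RPKM of the class was 3.32, 2.23, 3.28, 2.29 and 2.68% at 6, 12, 24, 36 and 42 months (means, n = 5 each). The share was thus about as low at 12 months as at 36 months. Of the pools of 6 months, replicate 2 had most retinal marker RNA (228 CPM) and replicate 4 least (25.3 CPM). They had 11.9 and 14.1 CPM of GRM6 (1 of 2). Replicates 1, 3 and 5 lay between them in retinal marker RNA and had 14.7, 14.9 and 13.7 CPM of the gene. The part of retinal RNA in the fall of GRM6 (1 of 2) was not tested. GRM8 (2 of 2) fell at 36 months too (log2 -0.29, SE 0.08, adjusted p = 0.0101), a call lost in 3 of 25 fits (weakest without brain 6 months replicate 3, log2 -0.22, adjusted p = 0.0702), while the leading genes were not called, with log2 fold changes of -0.04 for grm1a and -0.26 for GRM2 (2 of 2). The grm1a gene varied widely among the fish of 36 months, from 91.3 to 234.3 CPM.

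GABA-A receptor genes fell at 36 months in 6 of 18 cases (33.3%, where 3478 of all 23028 genes fell) and rose in 1 (5.56%, where 3127 of all genes rose). At 42 months 0 of 18 were called, where 4.20% of all genes fell and 4.47% rose. The median log2 fold change of the 18 from 6 months was -0.31, -0.33, -0.36 and 0.06 at 12, 24, 36 and 42 months, all against the same 6-month libraries. The medians of 12 and 24 months were thus close to that of 36 months. Set against 24 months, 1 of the 18 was lower at 36 months and 1 higher, where 10.5% of all genes were in each direction. The gabrb2 gene had 323.5 to 370.4 CPM at 36 months, against 285.5 to 357.3 CPM at 6 months (log2 0.15, adjusted p = 0.203). The gene gabrd, of the extrasynaptic subunit, had 415.2, 400.5, 385.5, 365.7 and 445.3 CPM at 36 months, against 445.7, 510.7, 530.9, 538.6 and 424.5 CPM at 6 months. The highest library of 36 months lay above the lowest of 6 months (log2 -0.28, SE 0.09, adjusted p = 0.025), and the call was lost in 9 of 25 fits, the weakest without brain 6 months replicate 4 (log2 -0.22, adjusted p = 0.109).

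Of the called GABA-A receptor genes gabra5 and GABRG3 are given in more detail, which were picked out after their values were seen. The gabra5 gene had 26.4, 34.0, 43.8, 36.5 and 36.3 CPM at 36 months, against 58.7, 51.2, 55.3, 54.4 and 55.3 CPM at 6 months. The groups did not overlap (log2 -0.64, SE 0.14, adjusted p = 0.00146, edgeR), and at 42 months gabra5 had 55.8 to 69.1 CPM. GABRG3 was low throughout, with 0.952 to 2.33 CPM at 36 months, against 2.29 to 3.55 CPM at 6 months (log2 -0.72, SE 0.22, adjusted p = 0.0193, edgeR), so that its highest library of 36 months alone lay within the range of 6 months. The calls of GABRG3 and of GABRG1, a further gamma gene, were lost in 3 and 5 of 25 fits, the weakest without brain 6 months replicate 3 for GABRG3 (log2 -0.57, adjusted p = 0.068) and without 36 months replicate 1 for GABRG1 (log2 -0.34, adjusted p = 0.0708).

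On the RefSeq annotation of the assembly GRCz12tu, on which 46 of the 63 genes were found by symbol, GABRG3 and gabra5 are direct neighbours. Their log2 fold changes at 36 months were -0.72 (SE 0.22) and -0.64 (SE 0.14), and between 42 and 36 months, a comparison added after the values were seen, 0.82 (SE 0.22) and 0.78 (SE 0.14), each called in edgeR's test. The rho genes gabrr1 and gabrr2b are also direct neighbours, and their values at 36 months ran in opposite directions, with 0.71 (SE 0.21) and -0.71 (SE 0.21), both called. In the cluster of GABRA2 (1 of 3), GABRG1 and GABRB1 the values were -0.24, -0.43 and -0.09, of which GABRG1 was called (adjusted p = 0.0203). There were 8 pairs of receptor genes with at most 2 protein-coding genes between them, and all were GABA receptor genes.

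**Figure D4:**
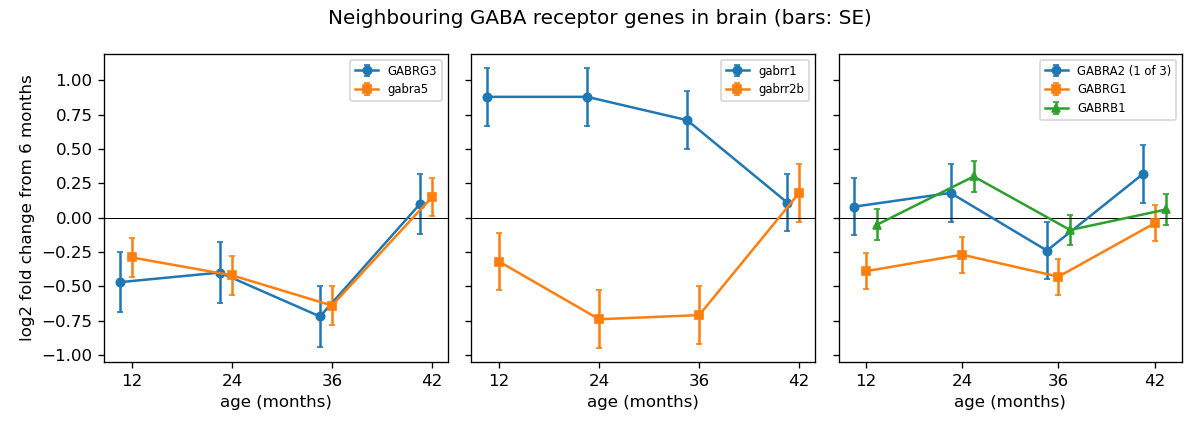
Log2 fold change from 6 months in brain (y, bars are SE) at 12, 24, 36 and 42 months (x) for 3 groups of neighbouring GABA receptor genes. GABRG3 and gabra5 lie at -0.72 and -0.64 at 36 months, whereas gabrr1 is at 0.71 and gabrr2b at -0.71.

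The gabra6b gene encodes the alpha6 subunit, which in mammals is largely restricted to cerebellar granule cells. It had 30.2, 33.3, 22.7, 21.5 and 13.0 CPM at 36 months, against 11.7, 11.9, 10.2, 17.6 and 15.2 CPM at 6 months. It was 1.81-fold higher (log2 0.86, SE 0.26, adjusted p = 0.0178, edgeR), with replicate 5 of 36 months within the range of 6 months. Against 24 months, where its lowest library had 5.25 CPM and its median was 11.3 CPM, it was 2.37-fold higher at 36 months (adjusted p = 0.00199). Its copy gabra6a was near the detection limit, with 0.0690 to 0.752 CPM in brain.

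The rho genes moved in different directions. GABRR1 (1 of 2) had 30.9, 31.9, 28.5, 24.1 and 27.0 CPM at 36 months and 10.1 to 18.1 CPM at 42 months, against 19.3, 19.0, 23.3, 21.0 and 16.2 CPM at 6 months. It thus rose at 36 months (log2 0.53, SE 0.14, adjusted p = 0.00921, edgeR) and fell at 42 months (log2 -0.57, SE 0.15, adjusted p = 0.0189), where 3 of 25 fits lost the call, the weakest without brain 42 months replicate 5 (log2 -0.49, adjusted p = 0.0642). The gabrr1 gene had 3.82 to 7.44 CPM at 12 months, 3.40 to 7.19 CPM at 24 months and 4.45 to 5.73 CPM at 36 months, against 2.22 to 3.55 CPM at 6 months, and was called higher at each of these ages (log2 0.88, 0.88 and 0.71). Its neighbour gabrr2b fell at 24 months (log2 -0.74, SE 0.21, adjusted p = 0.0225) and 36 months (log2 -0.71, SE 0.21, adjusted p = 0.0145), with 1.14 to 1.89 CPM at both ages, against 1.91 to 3.20 CPM at 6 months. Its call at 24 months was lost in 3 of 25 fits, the weakest without brain 24 months replicate 3 (log2 -0.63, adjusted p = 0.0662). The gene gabrr2a, the highest of the class, was not called at any of the 4 ages.

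The study set its 2 oldest ages together against the youngest. In old brain, the mean of 36 and 42 months, 13 of 63 genes fell (20.6%, where 10.6% of all genes did) and 1 rose (1.59%, where 8.97% did), against 6 months. They were 4 AMPA, 3 NMDA, 3 kainate and 1 delta receptor gene, GRM6 (1 of 2) and grid2ipb, and no GABA receptor gene was called. A total of 9 genes was called without brain 6 months replicate 1 or without replicate 3. The contributions of both ages were unequal. The grin1a gene (log2 -0.33, SE 0.07, adjusted p = 0.0024, edgeR) stood at -0.59 at 36 months and -0.07 at 42 months, GRIN2B (1 of 2) (-0.62, SE 0.16, adjusted p = 0.00929) at -0.95 and -0.30, and gria1b (-0.32, SE 0.10, adjusted p = 0.025) at -0.69 and 0.05. For grik4 (-0.32, SE 0.07, adjusted p = 0.00335) they were -0.33 and -0.30. Calls often lost when a library was left out were those of grik1a, in 14 of 25 fits, and of gria3b and grid2ipb, in 9 each. Without brain 6 months replicate 3 grik1a had -0.22 (adjusted p = 0.12) and gria3b -0.16 (adjusted p = 0.138), and without replicate 1 of that age grid2ipb had -0.29 (adjusted p = 0.0824). The calls of gria1b and GRM6 (1 of 2) were lost in 3 and 2 fits, and stood at -0.26 (adjusted p = 0.0898) and -0.44 (adjusted p = 0.054) without 6 months replicate 3.

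Set against 24 months, where all fish were sampled singly, 15 of 63 genes were lower in old brain (23.8%, where 8.73% of all genes were) and 3 higher (4.76%, where 7.70% were). The smallest p-values were those of gria3a (log2 -0.62, SE 0.08, adjusted p = 2.3e-05, edgeR), grin1a (-0.46, SE 0.07, adjusted p = 1.6e-04), GRID1 (1 of 2) (-0.35, SE 0.05, adjusted p = 1.8e-04) and grin2aa (-0.38, SE 0.08, adjusted p = 0.00196). Of the 15, 4 were AMPA, 4 NMDA, 4 kainate and 1 delta receptor gene, beside GRM8 (2 of 2) and GABRB1, and gabra6b, grin2ca and GRIN3A were the 3 that were higher. The call of GRIN3A was lost in 14 of 25 fits, the weakest without brain 24 months replicate 4 (log2 0.24, adjusted p = 0.132). Those of gabra6b and grin2ca were lost in 2 and 3 fits, the weakest of both without brain 24 months replicate 2 (log2 0.68 and 0.54, adjusted p = 0.0608 and 0.0847).

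Other genes of the same synapses were followed in lists. Of 46 tested genes for auxiliary subunits and scaffolds of glutamate receptors, 18 fell (39.1%, where 3478 of all 23028 genes did) and 3 rose (6.52%, where 3127 of all genes did) at 36 months, with a median log2 fold change of -0.32 against -0.02 over all genes. The smallest p-values were those of grip1 (log2 -0.61, SE 0.09, adjusted p = 3.4e-05, edgeR) and grip2a (1.12, SE 0.17, adjusted p = 6.0e-05), which encode scaffolds that bind AMPA receptors. At 42 months 3 of the 46 fell (6.52%, where 4.20% of all genes did) and 1 rose (2.17%, where 4.47% did). Of 20 genes of transmitter synthesis and transport, 9 fell (45.0%) and 0 rose at 36 months (median -0.33), among them slc17a6a, a vesicular glutamate transporter gene (-1.07, SE 0.15, adjusted p = 3.1e-05), and gad1b, which encodes a GABA-synthesising enzyme (-0.43, SE 0.08, adjusted p = 2.8e-04), and 0 fell and 1 rose at 42 months. Of 14 genes for GABA-A receptor scaffolds and partners 4 fell (28.6%) and 3 rose (21.4%) at 36 months (median -0.14), with nlgn2b, a gene of an adhesion protein of inhibitory synapses, at -0.63 (SE 0.09, adjusted p = 1.8e-05) and iqsec3a, whose product binds the inhibitory scaffold gephyrin, at -0.45 (SE 0.07, adjusted p = 9.9e-05). Of 11 other GABA and glycine receptor genes 2 fell (18.2%) and 1 rose (9.09%), shares that do not stand out from those of all genes (median -0.24), with glrbb, a glycine receptor beta gene, at 0.33 (SE 0.05, adjusted p = 1.5e-04) and glra4b at -0.70 (SE 0.21, adjusted p = 0.0159).

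Marker lists of cell types were measured beside these results. Of 22 pan-neuronal markers tested, 0 were higher and 6 lower at 36 months (27.3%, where 3478 of all 23028 genes were), with a median of -0.12. Their summed levels were 14801 to 17170 CPM at 36 months, against 16627 to 18566 CPM at 6 months, and none of the 23 was at 0 in all brain libraries. The 2 with the smallest p were the sodium pump genes atp1a3a (log2 -0.36, SE 0.07, adjusted p = 9.1e-04, edgeR) and atp1a3b (-0.93, SE 0.22, adjusted p = 0.00323). Oligodendrocyte markers had 2 of 13 higher and 2 lower at 36 months (15.4% each, near the shares of all genes). The higher were olig2 (1.23, SE 0.19, adjusted p = 5.5e-05) and sox10 (1.15, SE 0.20, adjusted p = 2.6e-04), the lower mbpa (-0.57, SE 0.21, adjusted p = 0.0411) and plp1a (-0.45, SE 0.15, adjusted p = 0.0236), and their sum was 8117 to 15300 CPM at 36 months, against 13285 to 16780 CPM at 6 months. Astroglial markers had 4 of 15 higher (26.7%) and 3 lower, with glulb (-1.12, SE 0.21, adjusted p = 5.6e-04) and fabp7a (0.36, SE 0.09, adjusted p = 0.0055). Microglia and macrophage markers had 7 of 18 higher (38.9%) and 1 lower (5.56%), with ctsc (0.65, SE 0.15, adjusted p = 0.00286) and mhc2dab (3.28, SE 0.76, adjusted p = 0.00299). Of all 23028 genes 3127 were higher and 3478 lower at that age. The part of these cell types in the receptor results was not tested.

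The lists for tissues next to the brain were low and uneven. Photoreceptor and retina markers had 15 of 18 lower (83.3%, where 3478 of all 23028 genes were) and 1 higher (5.56%) at 36 months. Among them were gngt1 (log2 -5.02, SE 0.90, adjusted p = 3.1e-04, edgeR) and pde6h (-3.47, SE 0.64, adjusted p = 4.2e-04). At 42 months likewise 15 were lower (83.3%, where 4.20% of all genes were). Pituitary hormone genes had 4 of 5 lower at 36 months (80.0%), with lhb (-5.09, SE 1.01, adjusted p = 7.7e-04) and prl (-3.89, SE 0.80, adjusted p = 0.00101). The sum of the pituitary list was high only in replicates 2 and 5 of 6 months, with 721 and 183 CPM. The other pools had 7.21, 8.38 and 9.65 CPM, against 5.93 to 7.27 CPM at 36 months, so that these calls are not read as a fall with age. Skeletal muscle markers had 3 of 19 lower (15.8%), with mylpfb (-0.67, SE 0.18, adjusted p = 0.00907) and myhz1.1 (-3.93, SE 1.28, adjusted p = 0.0256). Skin markers had 2 of 21 lower (9.52%), with col1a2 (-2.04, SE 0.72, adjusted p = 0.0385) and cldne (-2.57, SE 0.96, adjusted p = 0.0484). The shares of muscle and skin markers were near or below that of all genes. The part of these tissues in the receptor results was not tested.

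Since gabra6b and grin2ca rose at 36 months, 10 other genes known from cerebellar granule cells (neurod1, zic, pax6 and related genes) were summed, a list that was chosen after these values were seen and is given without a test. Their sum was 2832, 2717, 2013, 2567 and 2377 CPM at 36 months, against 1323, 1151, 1319, 1890 and 1266 CPM at 6 months. Each library of 36 months lay above every library of the other ages, which reached 2005 CPM at 12 months, 1318 CPM at 24 months and 1963 CPM at 42 months. The sum of 9 Purkinje cell genes, chosen likewise, was 507, 1002, 812, 948 and 922 CPM at 36 months, against 525 to 699 CPM at 6 months. All libraries of 36 months but replicate 1 lay above every library of the other ages, which reached 793 CPM at 42 months. The part of granule and Purkinje cell RNA in the receptor results was not tested.

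**Figure D5:**
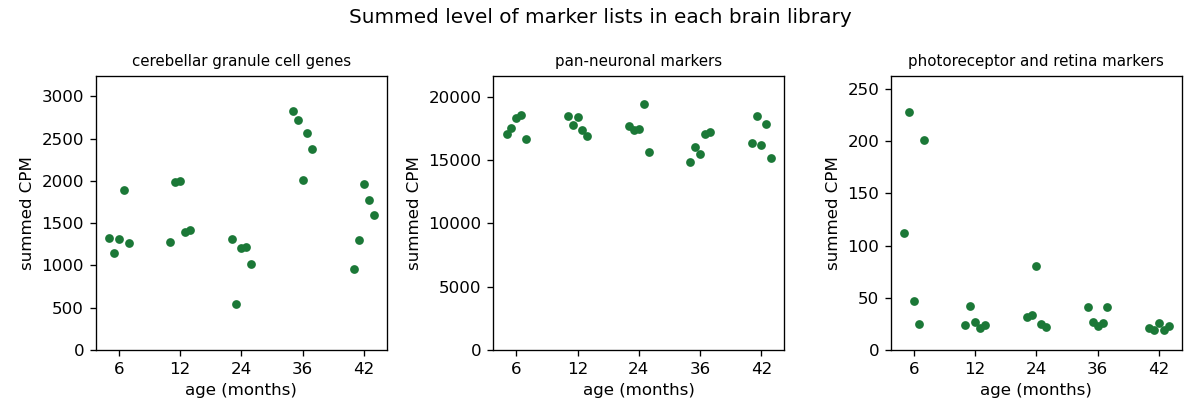
Summed CPM (y, from 0) of granule cell genes, pan-neuronal markers and retina markers in each brain library at the 5 ages (x). Granule cell genes reach 2013 to 2832 CPM at 36 months, more than in any other library. Retina markers range from 25.3 to 228 CPM in the pools of 6 months and reach 80.8 CPM in the other libraries.

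Skin served as a contrast tissue. Of the 63 receptor genes, 43 passed the filter on low counts in skin. In a test over 24756 genes in both tissues, 42 of these 43 were higher in brain (97.7%, where 44.9% of all genes were) and 0 lower (where 43.6% were), with a median log2 difference of 6.08. The other 20 entered that test through their level in brain alone, so that their higher level there follows from the filter. Among the largest differences was that of gria3b (8.88, SE 0.19). Its mean in skin, 0.0623 RPKM, was the lowest of the 8 AMPA receptor genes, of which 7 passed the filter there. Its difference is thus not read as a result. The exception, GABRR1 (1 of 2), was not called (log2 -0.13, SE 0.10, adjusted p = 0.219), except without skin 42 months replicate 2, and its sign was the opposite in mean RPKM, with 4.18 RPKM in brain and 3.37 RPKM in skin. In skin 56 of the 63 genes averaged under 0.5 RPKM, and 45 had a count above 0 in every library.

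The 4 genes at 1 RPKM or more in skin behaved differently from each other. GABRR1 (1 of 2) ranged from 0.913 to 4.64 RPKM and gabrd from 1.43 to 4.01 RPKM over the 25 skin libraries. The grin1a gene ranged from 0.364 to 10.2 RPKM, with 2.62, 10.2, 2.17, 0.565 and 3.29 RPKM in the fish of 42 months, while grin1b stayed at 0.0402 to 0.280 RPKM outside 42 months replicate 5, where it had 3.49 RPKM. The gene grik1a, a kainate receptor gene, had 0.800, 0.536, 1.85, 3.88 and 4.44 RPKM at 36 months and 4.97, 0.335, 3.00, 0.270 and 0.246 RPKM at 42 months, against 1.36, 0.130, 0.387, 2.52 and 0.361 RPKM at 6 months. Its fish differed widely within each of these ages, and the groups overlapped.

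In old against young skin, where 1 gene in all was called in a fit of 6, 36 and 42 months alone, 1 of 43 tested genes rose (2.33%, where 7.81% of all genes did) and 2 fell (4.65%, where 7.32% did). GRIN2C (1 of 2) had counts of 5, 2, 1, 4 and 7 at 36 months and 2, 3, 4, 4 and 2 at 42 months, against 35, 15, 9, 14 and 15 at 6 months. The groups did not overlap (log2 -2.39, SE 0.42, adjusted p = 9.5e-04, edgeR), but all counts were small. The gria1b gene fell as well (log2 -1.07, SE 0.31, adjusted p = 0.0213), a call lost without skin 6 months replicate 3 (log2 -0.99, adjusted p = 0.0539), and GRM8 (1 of 2) rose (1.49, SE 0.43, adjusted p = 0.0211), a call lost in 3 of 25 fits, the weakest without skin 6 months replicate 5 (1.31, adjusted p = 0.0705).

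The difference between tissues in the change from young to old was tested as an interaction. Of the 43 genes that passed the filter in skin it was higher in brain for 1 (2.33%, where 4.06% of all genes were) and lower for 3 (6.98%, where 5.41% were), shares that do not stand out from those of all genes. Over all 63 genes 5 were called, against 8 with DESeq2 and 3 with limma voom. The fifth, GRID1 (2 of 2), did not pass the filter in skin and is not read as a difference. GRIN2C (1 of 2) had a log2 difference of 2.17 (SE 0.42, adjusted p = 8.4e-04, edgeR), with -0.24 in brain and -2.39 in skin. GRM8 (1 of 2) had -1.52 (SE 0.38, adjusted p = 0.0075), with -0.04 in brain and 1.49 in skin. Without skin 42 months replicate 5 these were 2.08 and -1.28, both still called, while the call of gria4b was lost (log2 -0.55, adjusted p = 0.0691) and grin2ca was called in its place (1.13, adjusted p = 0.0246).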

How the data were processed

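RNA of brain, skin and liver was read with TruSeq kits as single-end reads. Per the labels and methods, the authors used CASAVA 1.8.0, mapped with TopHat2 2.0.6 to Zv9 and assigned reads to genes with HTSeq or featureCounts. The deposited counts are whole numbers per gene, not normalised by the authors. The deposited RPKM values, which the authors computed from those counts, imply a fixed length per gene and were used for levels between genes. The kit does not mark strand, so that counts of overlapping genes are uncertain. Counts of near-identical copies are uncertain as well, whether or not strand is marked.

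Differences in counts were tested in R 4.3.3 by the quasi-likelihood method of edgeR 4.0.16 (robust fit, TMM scaling, low counts removed by filterByExpr, age as a factor, all 25 libraries of a tissue or 50 of both), 2-sided, Benjamini-Hochberg adjusted over all genes. SE is the size of the log2 fold change over the root of F. CPM are counts per 1000000 of the TMM-scaled library. Alternatives were scaling by RLE, keeping every gene with a count above 0, a filter on RPKM above 0 in every library of the tissue (the study applied its own over each organism), DESeq2 1.42.0, limma 3.58.1 voom, fewer ages, and leaving out each library. Tests were checked on simulated counts. Brain and skin came in part from the same fish: deviations from the group means had a median r of 0.16 over 15 pairs of 1 fish, with -0.0879 the lowest, and -0.0133 over 110 other pairs, and a further fit had the fish as its block. A further 2 libraries whose labels name both skin and liver were not used. No pair of libraries was identical.

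Genes named were the highest of each class in brain, up to 5 highest and 10 lowest fold changes among those called in old against young brain, up to 4 with the smallest p at 24 months and in old against 24 months, up to 3 highest in skin and up to 3 of the interaction. Of each other list 2 genes were named. The receptor genes and lists were chosen with earlier results of these data known. Others named, such as grin2bb, gria1a, gria3b, grin2ca, gabra5, GABRG3 and gabra6b, were picked after their values were seen. Some genes that the rule names are not reported here.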

Additional observations from a re-analysis of the deposited data

Results flagged for a closer look

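Groups of 5 brain libraries were checked, 195 in all, for 28 genes and 11 class sums at 5 ages. The gap between a library and the rest was above Dixon's critical value in 5 groups. Chance alone gives about 1 group in 20, so that 5 of 195 are not more than chance gives. The gabrr2a gene had 8.50 CPM in 42 months replicate 2, against 6.05 to 6.71 CPM in the others. GRIN3A had 16.5 CPM in 42 months replicate 1, against 11.3 to 12.7 CPM. The gabrr1 gene had 2.22 CPM in 6 months replicate 1, against 3.33 to 3.55 CPM. The gria4a gene had 82.8 CPM in 6 months replicate 5, against 92.1 to 95.7 CPM. GRM8 (1 of 2) had 89.3 CPM in 6 months replicate 4, against 69.3 to 73.3 CPM.

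The change from young to old differed between brain and skin in edgeR's interaction test for 4 genes that passed the filter on low counts in skin: GRIN2C (1 of 2) by 2.17 on the log2 scale (adjusted p = 8.4e-04), GRM8 (1 of 2) by -1.52 (adjusted p = 0.0075), grik5 by -1.19 (adjusted p = 0.0143) and gria4b by -0.60 (adjusted p = 0.0487). Of the 43 genes that passed that filter, the change was higher in brain for 2.33%, where 4.06% of all genes were. It was lower for 6.98%, where 5.41% of all genes were. These shares do not stand out from those of all genes. Skin counts per library were small for grik5 (3 to 23) and GRIN2C (1 of 2) (1 to 35). A value of -1.76 for GRID1 (2 of 2) rests on skin counts too low for that filter and is not read as a difference. The call of gria4b was lost in 35 of 50 fits that left out a library, the weakest without skin 6 months replicate 4 (-0.49, adjusted p = 0.133).

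In liver, which entered no comparison, the summed receptor RNA lay above the limit of 3 counts in each of the 23 libraries. A sum over many genes passes that limit easily, so that it does not show expression of any single gene. Glutamate receptor genes summed to a median of 24 CPM, with a range of 7.36 to 171, and GABA receptor genes to 20, with a range of 16.6 to 79.3.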

How the results depend on the processing

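Counts of called genes are given with their lowest and highest value when each library was left out in turn. They were 9 to 16 in old against young brain (14 with all libraries), 5 to 11 at 12 months (8), 3 to 12 at 24 months (6), 22 to 33 at 36 months (33), 1 to 4 at 42 months (3), 15 to 20 in old against 24 months (18), 37 to 42 at any age (41), 2 to 4 in skin (3), 62 to 63 in brain against skin (62), 4 to 7 in the interaction (5), 20 to 27 for 36 against 24 months (23) and 17 to 27 for 42 against 36 months (27). With DESeq2, 11 genes were called at 24 months and 8 in the interaction, where limma voom called 3, both without and with the fish as replicate block. In skin 1 was called in a fit of 6, 36 and 42 months alone. The cause of these shifts was not tested. The fish block was fitted only to brain and skin together, where the count of brain against skin moved by no more than 1.5 times. No paired analysis was possible within brain because each fish was sampled at 1 age. Of 1460 values of called named genes under alternatives, 1368 kept direction and call, 92 kept direction but lost the call and 0 reversed. Receptor genes with a few counts per library in skin are limited by depth. Intervals cover neither the line nor pooling, which change with age.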
